A study of Rattus norvegicus with 12 samples.

Results

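The results below describe the resting transcriptome of TRL1215, a rat liver cell line, as read from the 3 control arrays out of 12 arrays in the series. TRL1215 is a non-tumorigenic line started from the liver of a young rat and is usually called a liver epithelial line. The control arrays, named control replicates 1, 2 and 3 here, hold RNA from passage-matched cells grown in William's E medium with serum and no added compound. The other 9 arrays hold RNA from the same line grown with perfluorooctanoic acid, or PFOA, for up to 38 weeks. PFOA is a surfactant that activates the lipid-sensing receptor PPARα in rodent liver. They form the groups T10, T50 and T100, with 3 arrays each at 10, 50 and 100 µM. All 4 groups come from 1 line, and the labels do not say whether the 3 arrays of a group came from separate cultures, so every spread given here may be technical. The label gives liver as the tissue, and no array of whole liver or of another cell type was measured beside them.

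The liver is built from several cell types that can be told apart by their transcripts. Hepatocytes secrete albumin and most plasma proteins, make bile acids and urea, and carry a dense set of drug-metabolising enzymes under transcription factors such as HNF4A. Bile duct cells are marked by keratins 7 and 19, stellate cells and fibroblasts by fibrillar collagens and vimentin, and the mesothelium that covers the organ by mesothelin and uroplakins together with keratins. Cells put in culture often lose hepatocyte transcripts and gain those of proliferation and of the cytoskeleton.

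Values were deposited as log2 signals, with 1 value per probe set and array. Each gene with its own probe set was represented by the brightest such probe set over the control arrays, which gave 22093 genes. A gene was called above background when its mean over the 3 control arrays exceeded 5.42, the mean over those arrays of the 95th percentile of 1153 negative-control probe sets. That level was 5.52, 5.36 and 5.40 on replicates 1, 2 and 3. By this rule, which is a cut on a level and no test, 4516 of 22093 genes (20.4%) were above background, and 4315 (19.5%) were above the level of each of the 3 arrays separately. The call depends on where the level is put: with the 99th percentile of the negative controls, 1168 genes passed.

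Most genes were not above background. The median gene lay at 3.84, close to the median negative control at 3.86, and 12619 genes (57.12%) were under 4. Of the genes above the level, 2739 (12.4% of all genes) had means up to 8, 1265 (5.73%) lay between 8 and 12, 337 (1.53%) between 12 and 16, and 175 (0.79%) above 16. The negative controls themselves had a long tail, with 9 of them above 10 and the highest at 19.31, so a bright signal from a single probe set is not by itself proof of a transcript. The values stop at 19.93, and 50 genes sat at that ceiling on all 3 control arrays. A further 251 genes held 1 identical value below the ceiling on the 3 arrays, so that 208 of 512 genes averaging above 12 (40.62%) were tied, ceiling included. For tied genes the spread between replicates is unknown, and an SD of 0 is not a precision. Ranks given below order the signals of probe sets, which differ in affinity, and do not order transcript amounts.

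**Figure D1:**
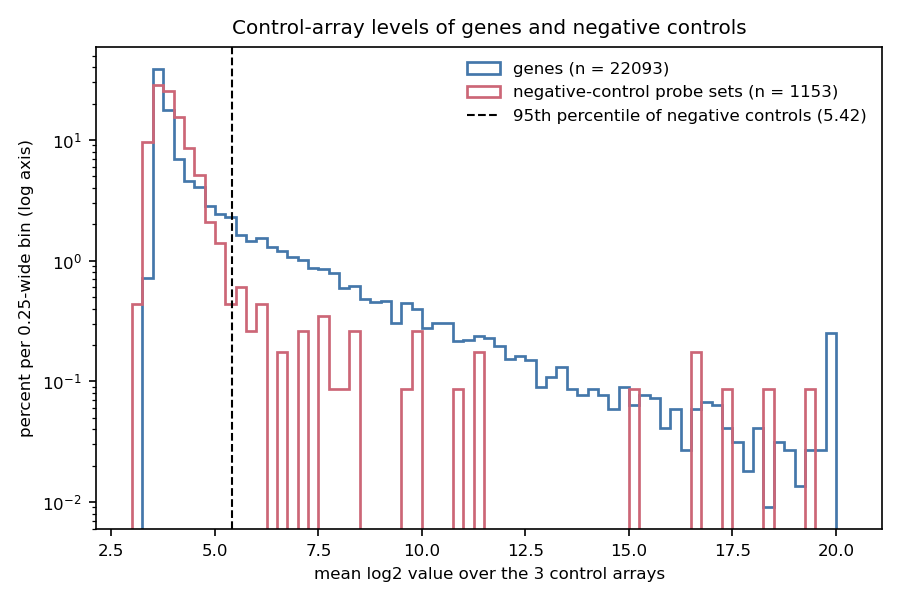
Distribution of mean log2 values over the 3 control arrays for 22093 genes (blue) and 1153 negative-control probe sets (red), as a percent per 0.25-wide bin on a log axis. The dashed line is the 95th percentile of the negative controls (5.42). Both distributions peak below 4, and the genes carry a long shoulder up to a pile at the ceiling of 19.93.

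The genes at the ceiling on all 3 control arrays were of several kinds, and no kind was tested for being over-represented among them. They included the elongation factor Eef1a1, the ribosomal proteins Rpl4, Rplp1, Rps4x and Rps29, the glycolytic enzymes Gapdh and Pgam1, and the chaperones Hspa8 and Hsp90aa1. The cytoskeletal genes among them were Actg1, which encodes a cytoplasmic actin, the tubulins Tuba1a, Tuba1b, Tuba1c and Tubb5, and vimentin (Vim). Secreted products at the ceiling were the matrix proteins fibronectin (Fn1), thrombospondin (Thbs1) and biglycan (Bgn), the chemokine Ccl2, which attracts monocytes, the semaphorin Sema3c and the lysosomal protease cathepsin B (Ctsb). The mitochondrially encoded cytochrome oxidase subunits COX1, COX2 and COX3, the annexin Anxa2 and the small noncoding RNAs Rpph1, Rn7sl1 and Bc1 were there as well. Several of these have near-identical copies: the pseudogenes Hspa8-ps12, Hspa8-ps23, Hspa8-ps25, Gapdh-ps1, Actb-ps2 and Pkm-ps20 were also at the ceiling. Of 854 genes with a numbered pseudogene symbol, 289 (33.8%) were above background, beside 20.4% of all genes. The signals of such copies and their parent genes cannot be told apart here.

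Hepatocyte products were at background. Of 24 measured genes for proteins that hepatocytes secrete, 0 were above the level, beside 20.4% of all genes. All 24 lay under 4, with the highest at 3.92, as did 57.12% of all genes. Albumin (Alb), the main plasma protein, read 3.69, 3.69 and 3.72 on replicates 1, 2 and 3. Alpha-fetoprotein (Afp), its fetal counterpart, read 3.68, 3.72 and 3.75. The thyroid hormone carrier Ttr read 3.73, 3.68 and 3.68, and Apoa1, the main protein of high-density lipoprotein, 3.70, 3.74 and 3.91. All of these lay near the median of all genes and overlapped each other. The label names liver, and these defining markers of hepatocytes were not detected on any control array. In bulk RNA, fewer cells of a type and less RNA per cell cannot be told apart.

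The enzymes, regulators and transporters of hepatocytes gave the same picture with a few exceptions. Of 20 hepatocyte metabolic enzymes, 2 (10.0%) were above background, below the 20.4% of all genes. They were arginase (Arg1), the last enzyme of the urea cycle, at 6.56, 6.43 and 6.43, and the preceding enzyme Asl at 5.50, 5.47 and 5.67, just over the level. Cyp7a1, the rate-limiting enzyme of bile acid synthesis, read 3.64, 3.64 and 3.57, and the tyrosine aminotransferase Tat 3.70, 3.78 and 3.73. Of 18 liver-enriched transcription factors, 1 (5.56%) passed: Gata6, which is also active in other tissues, at 7.02, 7.14 and 7.39. Hnf4a read 3.66, 3.73 and 3.77, and Foxa2 came nearest among the next named factors, at 5.08, 5.24 and 5.18. Of 15 hepatocyte membrane transporters, 1 (6.67%) passed, the transferrin receptor Tfrc (10.92 ± 0.16, SD, n = 3), which dividing cells of many kinds carry. The bile acid importer Slc10a1 (3.60 ± 0.03) and the glucose transporter Slc2a2 (3.63 ± 0.02) were at background.

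The promoter of albumin is printed with those of 3 genes that were bright in the same cells, so that a reader can compare a hepatocyte gene at background with bright genes of this line; the 4 genes and the motifs were chosen after their values were seen. Each line gives the 120 bases before the start of the gene in RefSeq, build GRCr8, 5′ to 3′ on the gene's strand. Alb lies at chr14:17906980-17907099, Krt8 at chr7:135010340-135010459, Upk3b at chr12:26274241-26274360 and Lrrn4 at chr3:140603987-140604106, all on the minus strand. Capitals mark matches on either strand to any of 4 short motifs: the TATA box (TATAAA), the CCAAT box (CCAAT), the GC box (GGGCGG) and a TEAD site (GGAATG).
Alb: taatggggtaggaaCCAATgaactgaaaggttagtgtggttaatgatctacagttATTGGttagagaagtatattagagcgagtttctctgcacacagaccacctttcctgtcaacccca
Krt8: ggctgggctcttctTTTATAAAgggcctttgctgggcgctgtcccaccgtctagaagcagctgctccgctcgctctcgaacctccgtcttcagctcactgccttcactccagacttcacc
Upk3b: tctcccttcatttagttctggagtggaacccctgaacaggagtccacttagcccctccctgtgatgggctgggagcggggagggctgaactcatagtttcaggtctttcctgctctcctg
Lrrn4: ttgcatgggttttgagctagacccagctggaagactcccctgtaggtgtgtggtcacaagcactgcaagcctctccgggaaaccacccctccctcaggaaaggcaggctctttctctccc
Alb holds a CCAAT box 106 bases before the start and an inverted one 65 bases before it. Krt8 holds overlapping matches to the TATA box on both strands, at 104 and 106 bases, and the windows of Upk3b and Lrrn4 hold none of the 4 motifs. A match to such short letters is a description and not a binding site.

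Across the genes with a RefSeq promoter, the 250 bases before the start differed in composition between genes above background and the rest. A promoter was found for 17125 of the 22093 genes, 3554 of them above background and 13571 not. The GC box was present in 63.1% of the promoters of genes above background, in 37.8% of the others, and in 32.4% of all 27457 promoters in the table. The median ratio of observed to expected CpG was 0.801 above background and 0.469 below, and the median GC content was 61.2% and 54.0%. The TATA box was found in 6.56% and 12.7% (all promoters 13.1%). CCAAT was found in 36.6% and 34.5% (all promoters 34.3%), and the TEAD site in 9.57% and 11.4% (all promoters 11.8%). These shares are descriptions, since motif letters follow base composition and promoters of related genes are not independent.

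Of 18 biliary and progenitor markers, 3 (16.7%) were above the level, a share near the 20.4% of all genes. Krt19 read 3.70, 3.79 and 3.75, Krt7 3.89, 3.97 and 3.97, and Epcam, a surface protein of ductal and other epithelia, 3.68, 3.65 and 3.74. The 3 members above background are not confined to bile ducts in their known expression: Tnfrsf12a, the receptor of the cytokine TWEAK (14.72, 14.60 and 14.70), the transcription factor Sox4 (10.93, 10.30 and 10.95) and the chloride channel Cftr (7.53, 7.66 and 8.22).

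Genes of the mesothelial list were among the bright ones. Of 15 measured members, 8 (53.3%) were above background, against 20.4% of all genes, and the list's median was 7.06 beside 3.84 for all genes. The list was chosen with earlier results of these data known, so the share is a description and no test. Mesothelin (Msln), a surface glycoprotein that marks mesothelium, read 16.61 on all 3 arrays, and Krt8, an early epithelial keratin, 19.06 on all 3. Lrrn4, a leucine-rich membrane protein, read 13.57, 14.02 and 14.75 on replicates 1, 2 and 3. Upk3b, a uroplakin known from bladder lining and mesothelium, read 12.47, 12.83 and 13.05. Those 4 stood far above the level on every control array, and Msln and Krt8 were tied, so their spread is unknown.

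To account for the whole list, the members outside the naming rule are given as well. Upk1b, another uroplakin, had a mean of 11.36 ± 0.30 (SD, n = 3), the transcription factor Bnc1 10.97 ± 0.64, the mucin-type protein podoplanin (Pdpn) 10.68 ± 0.25 and the transcription factor Tbx18 7.06 ± 0.23. The other 7 were not above background. Wt1, the transcription factor most used to mark mesothelium, read 4.60, 4.56 and 4.57, below the level but above the median of all genes. Calb2 (3.70 ± 0.04), Gpm6a (3.78 ± 0.07), Krt18 (3.76 ± 0.07), Krt19 (3.74 ± 0.05), Muc16 (3.70 ± 0.03) and Efemp1 (3.67 ± 0.08) lay at background. The list is therefore split, with Msln, Lrrn4 and the uroplakins bright and Wt1, Calb2 and Muc16 not detected, and the cells are described here by these genes without a cell type name.

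**Figure D2:**
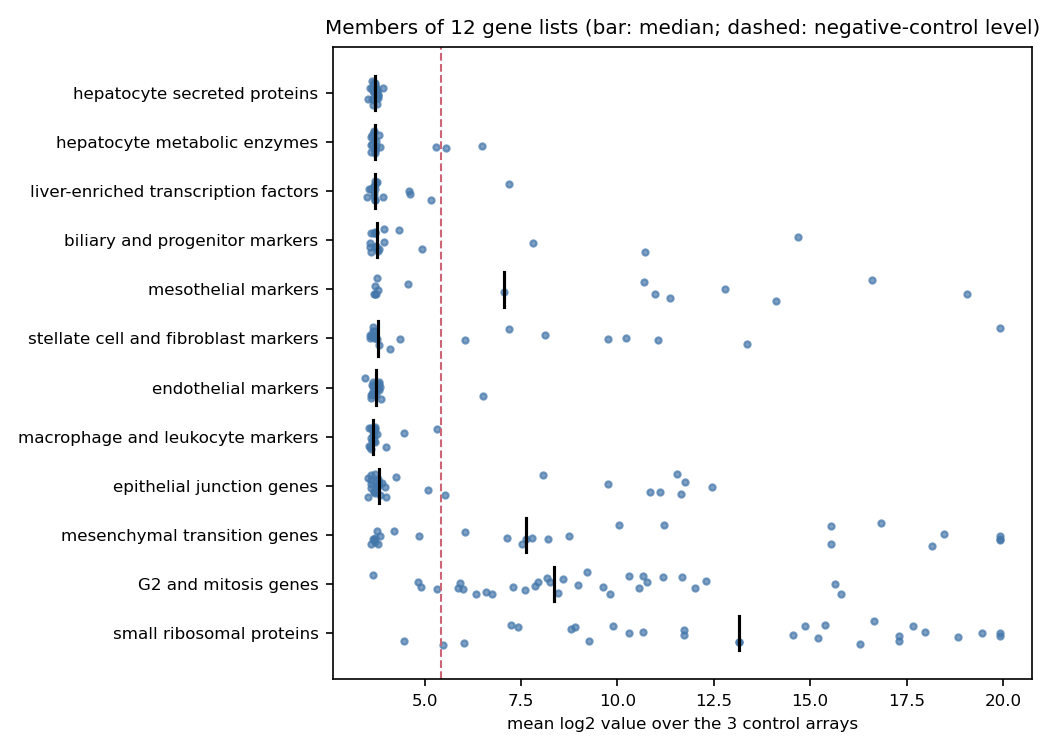
Mean log2 value over the 3 control arrays of each measured member of 12 gene lists, with 1 point per gene. Black bars are list medians and the dashed line is the negative-control level (5.42). All 24 hepatocyte secreted proteins sit under 4, while the mesothelial list spreads from 3.67 to 19.06.

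Of 20 keratins and other intermediate filament genes, 7 (35%) were above background: Vim at 19.93, Krt8 at 19.06, Krt14, a basal epithelial keratin, at 15.66, 16.15 and 16.50, the lamins Lmnb1 (9.75 ± 0.04) and Lmna, Prph, and Krt17. Of the 48 genes with a keratin symbol, only Krt8, Krt14 and Krt17 passed. Krt18, the usual filament partner of Krt8, read 3.74, 3.84 and 3.70. Of 31 epithelial junction genes, 9 passed (29%, beside 20.4% of all genes). The scaffold Tjp1 of tight junctions (12.45 ± 0.06), the catenins Ctnna1 (11.74 ± 0.04) and Ctnnb1 (11.54 ± 0.11) and plakoglobin (Jup, 11.66 ± 0.09) led them. E-cadherin (Cdh1), the classic epithelial cadherin, read 3.79, 3.71 and 3.76, and the claudins Cldn2, Cldn3 and Cldn4 lay at 3.60, 3.61 and 3.53. N-cadherin (Cdh2) was also at background, at 3.69, 3.69 and 3.67. P-cadherin (Cdh3), which was looked up after the values of the other cadherins were seen, read 17.13 on all 3 arrays.

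Mesenchymal and cytoskeletal genes were widely expressed. Of 27 genes linked to the mesenchymal transition, 17 (63.0%) were above background, beside 20.4% of all genes. Their median was 7.63, beside 3.84 for all genes. Vim, Fn1 and Thbs1 were at the ceiling, and Sparc, a matrix-associated glycoprotein, read 18.46 on all 3 arrays. Of the transcription factors on the list that drive this transition, Snai2 (8.21 ± 0.28) and Zeb1 (7.63 ± 0.03) were above background. Snai1 (3.60 ± 0.14), Twist2 (3.84 ± 0.06) and Zeb2 (3.76 ± 0.01) were at background, and Twist1 (4.85 ± 0.09) lay below the level. Prrx1 was not above background either. Snai2, Zeb1, Zeb2 and Prrx1 were added after the values were seen. Of 39 contractile and cytoskeletal genes, 29 (74.4%) passed, while the muscle actins Acta1 (4.52 ± 0.05) and Actc1 (3.78 ± 0.04) did not.

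Stromal markers were present in part, beside 20.4% of all genes above background. Of 22 stellate cell and fibroblast markers, 8 (36.4%) were above background, led after Vim by the matrix protein Fbln2 (13.36, 13.36 and 13.36), smooth-muscle actin Acta2 (11.30, 10.91 and 10.93) and the collagen chain Col1a2 (9.99, 10.16 and 10.52). The PDGF receptors Pdgfra (3.69 ± 0.01) and Pdgfrb (3.67 ± 0.05), the filament protein desmin (Des, 4.37 ± 0.09) and the retinol-esterifying enzyme Lrat (3.82 ± 0.03), all used to recognise stellate cells, were not above it.

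Of 26 collagen chains, 7 were above background (26.9%, beside 20.4% of all genes). Among the 7 were Col1a2, Col3a1 (9.33, 9.79 and 10.12), Col8a1 (8.76, 8.51 and 8.70) and Col5a2 (8.24, 8.22 and 8.32). The basement membrane collagens Col4a1 (4.24 ± 0.03) and Col4a2 (4.30 ± 0.05) were not above background. Of 30 basement membrane and matrix glycoproteins, 18 (60.0%) passed, but the laminin alpha chains Lama1 (3.67 ± 0.03), Lama2 (3.79 ± 0.06), Lama3 (4.88 ± 0.13) and Lama4 (3.65 ± 0.04) did not. Lama5, named to complete the alpha chains of the list, did not pass either. Of 28 matrix proteases and inhibitors, 13 (46.4%) passed, with Ctsb at the ceiling, the sheddase Adam10 at 12.32 ± 0.03 and the inhibitor Timp2 at 11.09 ± 0.03. The matrix metalloproteinases Mmp2, Mmp3, Mmp7 and Mmp8 lay between 3.56 and 4.32. Of 30 integrins and syndecans, 15 (50.0%) passed, led by the tetraspanin Cd63 (16.28 on each array), the shared beta chain Itgb1 (15.54, 15.62 and 15.50), the tetraspanin Cd151 (14.94 ± 0.10) and the laminin-binding chain Itga3 (14.71, 14.45 and 14.17).

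**Figure D3:**
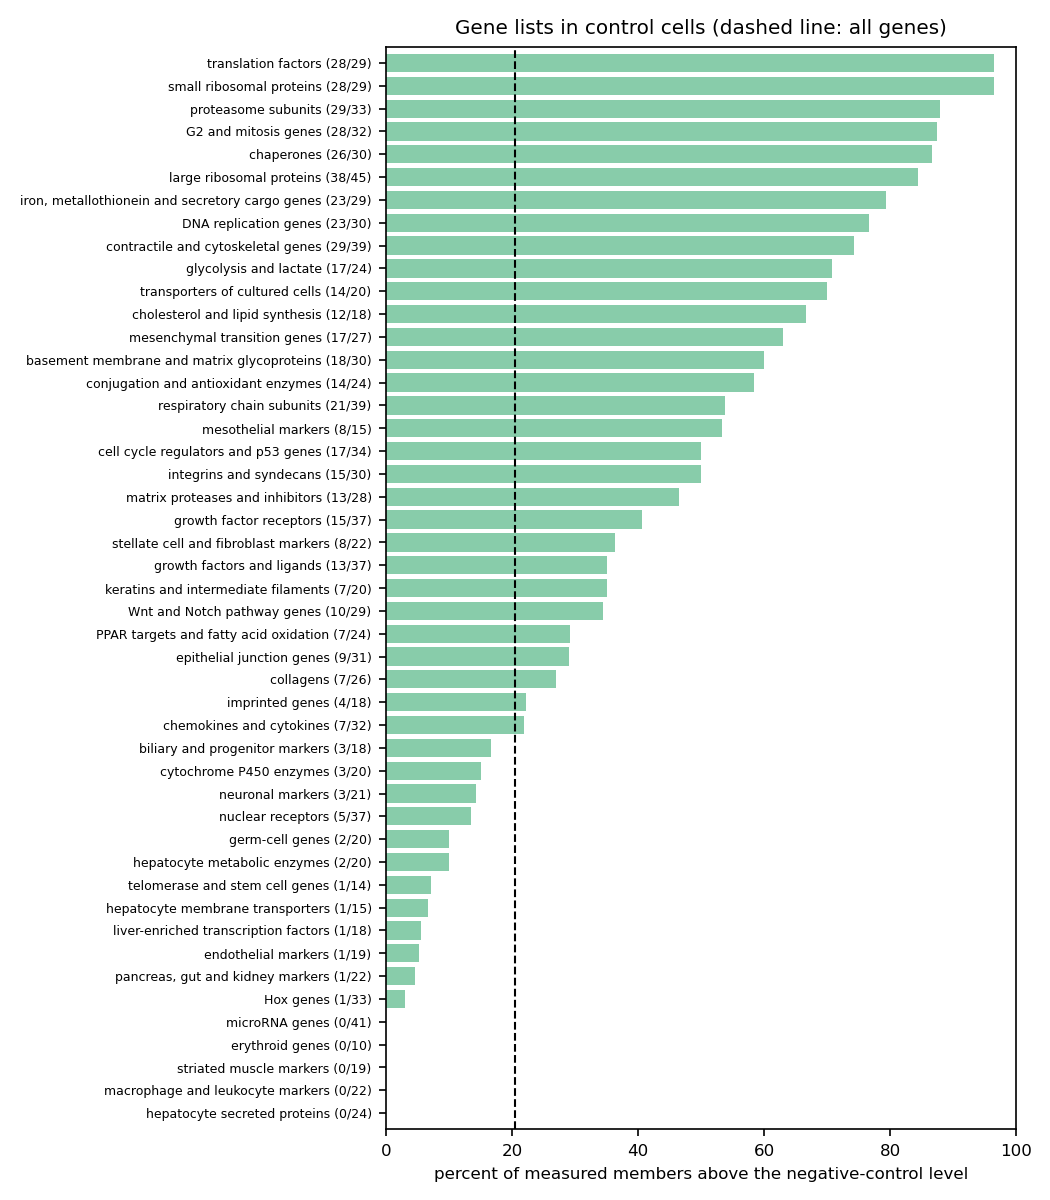
Percent of measured members above the negative-control level in control cells for the 47 lists with at least 10 measured members, with counts in parentheses. The dashed line is the share over all genes (20.4%). Translation factors and small ribosomal proteins reach 96.6%, and 5 lists, among them the hepatocyte secreted proteins, are at 0.

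Growth factor receptors and their ligands were each present in a subset, beside 20.4% of all genes above background. Of 37 receptors, 15 (40.5%) were above background: the kinase Axl at 15.54 on each array, the cytokine receptor chain Il6st at 12.79 ± 0.12, the hepatocyte growth factor receptor Met at 10.62, 10.44 and 10.61, and the ephrin receptor Epha2 at 10.31, 9.90 and 10.04. The EGF receptor Egfr, added after the values were seen, was also among the 15. The receptors Erbb2 (3.99 ± 0.07), Erbb3 (3.95 ± 0.03) and Erbb4 (3.68 ± 0.04) were near background, and Fgfr1 (4.57 ± 0.04) was below the level. Of 37 ligands, 13 (35.1%) passed. Follistatin (Fst), which binds activins, read 12.80, 12.77 and 12.76, the EGF receptor ligands Areg 8.88 ± 0.10 and Btc 7.83, 8.08 and 7.92, and Fgf19, an endocrine growth factor, 8.03, 8.56 and 9.17. The Met ligand Hgf (3.72 ± 0.05) was at background. Of 29 Wnt and Notch pathway genes, 10 (34.5%) passed, with the Wnt receptor Fzd2 at 13.90, 13.49 and 14.08 and the R-spondin receptor Lgr4 at 8.95 ± 0.07.

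Of 32 genes on the chemokine and cytokine list, 7 (21.9%) were above background, a share near the 20.4% of all genes. They were the chemokines Ccl2, Ccl7, Cxcl1 and Cxcl16, the receptor antagonist Il1rn, the growth factor Csf1 and the enzyme Ptgs2. Ccl2 was at the ceiling. The prostaglandin-forming enzyme Ptgs2 read 12.78, 12.55 and 12.80, the monocyte chemokine Ccl7 12.13, 11.99 and 11.82, and the neutrophil chemokine Cxcl1 9.38, 10.06 and 10.47. The chemokines Ccl3 (3.60 ± 0.14), Ccl4 (3.64 ± 0.06), Ccl5 (3.78 ± 0.16) and Ccl20 (3.76 ± 0.05) lay at background. For Cxcl1 the 3 arrays spanned more than 1 log2 unit, which is wide among these genes.

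Of 37 nuclear receptor genes and partners, which include receptors for lipids and drugs, 5 (13.5%) were above background, against 20.4% of all genes. They were the dioxin receptor Ahr (10.55, 10.51 and 10.56) and its partner Arnt, the glucocorticoid receptor Nr3c1 (8.60, 8.48 and 8.57), the retinoic acid receptor Rara (6.69 ± 0.11) and the clock gene Nr1d2 (6.50 ± 0.05). Ppara, which encodes PPARα, read 3.61, 3.60 and 3.62, and Pparg 3.65, 3.66 and 3.71, both at background. Ppard (4.74 ± 0.03) and their partner Rxra (5.23 ± 0.06) were higher but below the level. Of 24 PPAR target and fatty acid oxidation genes, 7 (29.2%) passed, with the mitochondrial carrier Ucp2 at 14.98 ± 0.05, the trifunctional protein subunit Hadha at 8.54 ± 0.08, the lipid droplet protein Plin2 at 8.88, 8.30 and 8.12, and the carnitine transferase Cpt1a at 7.81 ± 0.06. Ehhadh (3.63 ± 0.03), a peroxisomal oxidation enzyme and a known PPARα target in rodent liver, was at background.

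Of 20 cytochrome P450 genes and partners on the list, 3 passed (15%, beside 20.4% of all genes). They were the sterol enzyme Cyp51 (8.80, 8.83 and 9.05), Cyp20a1 (8.47, 8.42 and 8.19) and the electron donor Por (5.96, 5.86 and 5.79). Cyp1a1, a target of Ahr, was not above the level at 4.68, 4.19 and 4.08, nor was Cyp1b1 at 4.54, 4.18 and 4.10, although Ahr itself was. Cyp2b1 (3.60 ± 0.08), which phenobarbital induces in rat liver, was at background. Of 24 conjugation and antioxidant genes, 14 (58.3%) passed. Most of these are antioxidant genes, and the conjugating enzymes among them were Gstp1, Mgst1 and Gstm1. The brightest of the list included thioredoxin (Txn1) at 19.60 on each array, the glutathione transferase Gstp1 at 16.80 ± 0.01 and the peroxiredoxin Prdx1 at 15.98 on each array. The glutathione transferases Gsta1 (4.12 ± 0.06) and Gsta4 (3.71 ± 0.03) were not above the level; Gsta1 is abundant in adult rat liver.

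Core metabolism was expressed broadly, beside 20.4% of all genes above background. Of 18 cholesterol and lipid synthesis genes, 12 (66.7%) were above background, led by the desaturase Scd2 (16.36, 16.85 and 16.86) and the elongase Elovl6 (14.03, 13.92 and 14.05), while its relative Scd read 4.77 ± 0.19. Of 24 glycolysis and lactate genes, 17 (70.8%) passed. The muscle-type pyruvate kinase Pkm read 16.76 on each array and the phosphoglucose isomerase Gpi 19.77, and the neuronal enolase Eno2 (5.36 ± 0.07) fell just short. Of 20 transporters that cultured cells use, 14 (70.0%) passed, among them the glucose transporter Slc2a1 at 11.71, 11.60 and 11.62 and the choline transporter Slc44a1 at 12.14 ± 0.08. The cystine transporter Slc7a11 (4.28 ± 0.10) and the lactate exporter Slc16a3 (3.66 ± 0.01) did not.

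Genes that every growing cell uses show what the level misses. Over all genes, 20.4% were above it. Of 29 small ribosomal protein genes, 28 (96.6%) were above background, of 45 large ones 38 (84.4%), of 29 translation factors 28 (96.6%), of 33 proteasome subunits 29 (87.9%) and of 30 chaperones 26 (86.7%). The members not above it included Rps27 (4.44, 4.49 and 4.49), Rpl11 (4.89 on each array) and the proteasome subunit Psmb1 (4.64 ± 0.04), which all cells need. Of 39 nuclear-encoded respiratory chain subunits, 21 (53.8%) passed, with Atp5f1b of the ATP synthase at 13.51 ± 0.05 and Cox6c of cytochrome oxidase at 12.43 ± 0.21, while 18, such as Ndufa2 (4.43 ± 0.22) and Ndufb8 (4.29 ± 0.12), did not. A reading below the level is therefore not evidence that a transcript is absent. Of 29 iron, metallothionein and secretory cargo genes, 23 (79.3%) passed, with the annexin partner S100a10 at 19.89 and ferritin light chain Ftl1 at 16.82 on each array, and the metallothioneins Mt1 (4.68, 4.04 and 4.04) and Mt2A (5.20 ± 0.13) did not.

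The control cells carried the transcripts of active division, beside 20.4% of all genes above background. Of 30 DNA replication genes, 23 (76.7%) were above background, with the ribonucleotide reductase subunits Rrm1 at 16.72 on each array and Rrm2 at 13.94, 13.81 and 13.90, the polymerase clamp Pcna at 13.55, 13.63 and 13.40 and the thymidine kinase Tk1 at 12.16 ± 0.04. Of 32 G2 and mitosis genes, 28 (87.5%) passed, with the proliferation marker Mki67 at 15.80 and the mitotic kinase Plk1 at 15.63 on each array, and cyclin A (Ccna2) at 12.45, 12.22 and 12.21. Aurkb, the kinase of the chromosomal passenger complex, read 5.46, 5.30 and 5.23 and fell just short. Of 34 cell cycle regulators and p53 genes, 17 (50.0%) passed, with the cyclin Ccng1 at 12.93, 12.61 and 12.49, Cdk6 at 11.58 ± 0.02, Cdk4 at 10.57 ± 0.06 and the p53 ligase Mdm2 at 8.22 ± 0.17. The cell cycle inhibitor Cdkn1b (6.60 ± 0.05), added after its value was seen, was above background. The inhibitors Cdkn1a (3.89 ± 0.05), Cdkn1c (3.69 ± 0.02) and Cdkn2a (3.42, 3.66 and 3.56) were at background, as was the telomerase enzyme Tert (3.66 ± 0.05). Of 14 telomerase and stem cell genes, only Klf4 (9.08, 9.18 and 8.93), a factor also active in many epithelia, passed.

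Most markers of other lineages were not above background, with isolated exceptions, beside 20.4% of all genes above it. Of 22 macrophage and leukocyte markers 0 passed, with Ptprc at 3.69, 3.71 and 3.75 and the highest member at 5.31. Of 19 endothelial markers, 1 (5.26%) passed, the angiopoietin receptor Tek (6.56, 6.53 and 6.41). Pecam1 (3.62 ± 0.11) and Cdh5 (3.75 ± 0.03) did not. Of 19 striated muscle markers and 10 erythroid genes, 0 passed. Of 21 neuronal markers, 3 (14.3%) passed, a share not far below that of all genes. They were the calcium sensor Vsnl1 (7.88, 7.94 and 8.03), the neurofilament Nefh (7.85 ± 0.07) and the pentraxin Nptx1 (6.27 ± 0.05). Of 22 pancreas, gut and kidney markers, the trefoil peptide Tff1 passed alone (4.55%), at 7.35, 6.98 and 8.80. Of 20 germ-cell genes, 2 (10%) passed, the surface glycoprotein Tex101 (9.82, 10.23 and 9.84) and the homeobox gene Rhox5 (6.15, 6.03 and 5.95).

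Of 33 Hox genes, 1 (3.03%) passed, Hoxa13 at 5.65, 5.87 and 5.94. Of 18 imprinted genes, 4 (22.2%) passed, a share near the 20.4% of all genes. They were Peg10 (12.19, 11.84 and 12.18), Sgce (11.85 ± 0.06), Igf2r (8.21 ± 0.04) and Impact (7.96 ± 0.08), while the fetal growth factor Igf2 (3.94 ± 0.11) was not above background, nor was the noncoding Meg3 (3.64 ± 0.03). Families of sensory receptors and of beta-defensins, which are antimicrobial peptides, were counted by symbol patterns drawn up after values were seen. Of 148 vomeronasal receptor genes 3 were above background (2.03%), and of 38 taste receptors and 38 beta-defensins 0. Of 76 genes whose symbol matched the olfactory receptor pattern, 1 (1.32%) passed, Olr1 at 5.88, 5.62 and 5.94. A symbol match does not show that Olr1 is an olfactory receptor, and the highest of the others lay at 3.99.

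Probe sets for microRNA genes read the hairpin region and do not measure the mature form. Of 372 genes with a microRNA symbol, 369 of which matched RefSeq, 2 (0.538%) were above background, beside 20.4% of all genes. They were Mir544 at 11.38, 11.46 and 10.78 and Mir3542 at 8.16, 7.79 and 7.88. Of the 41 on the fixed list 0 were. The hairpin of miR-122, the most abundant microRNA of hepatocytes, read 3.58, 3.51 and 3.78. Those of miR-192 (3.52 ± 0.04), miR-200c (3.86 ± 0.15) and miR-141 (3.70 ± 0.07) were at background as well. The miR-200 family, to which miR-200c and miR-141 belong, is known from epithelial cells. The mature sequences of these are printed from RefSeq (GRCr8) to show which products were asked for, with the seed, bases 2 to 8, in capitals.
miR-122-5p: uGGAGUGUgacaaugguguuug
miR-192-5p: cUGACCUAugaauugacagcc
miR-200c-3p: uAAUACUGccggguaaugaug
miR-141-3p: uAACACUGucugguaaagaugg
miR-544-3p: aUUCUGCAuuuuuagcaagcu
miR-3542: aAGGCUCUucuuuccuugcag
The seeds of these 6 all differ, and the 2 microRNA genes whose probe sets were bright share none with those of the liver and epithelial microRNAs.

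The 3 control arrays were close to each other. Root mean square differences over all genes were 0.126 between replicates 1 and 2, 0.140 between 1 and 3 and 0.129 between 2 and 3. The median SD was 0.0743 for genes above background and 0.0545 for the others, and 22 genes above background had an SD over 0.5. The most variable were Tff1 (SD 0.96), the pseudogenes Rpl6-ps1 (16.25, 16.74 and 15.02) and Rps25-ps8 (10.74, 10.60 and 9.37), the iron reductase Cybrd1 (7.96, 7.51 and 9.04), the interleukin-4 receptor Il4r (9.42, 9.74 and 10.80), Akr1b8-ps2 (7.33, 8.77 and 7.99), Bnc1 (10.27, 11.12 and 11.52) and Lrrn4. Replicate 3 held the highest value for Tff1, Cybrd1, Il4r, Bnc1 and Lrrn4 and the lowest for Rpl6-ps1 and Rps25-ps8. At the boundary, 403 genes were above the level of their own array on 1 or 2 of the 3 arrays only. Just inside it lay Hmga1, Acvr2a and Spryd3 and just outside it Ube2g2, Zmynd8 and Hsd17b4, all with a mean of 5.42. Hmga1 read 5.61, 5.41 and 5.26 and Hsd17b4 5.43, 5.37 and 5.46, so the 2 sides overlap.

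Against the 9 exposed arrays most of this baseline was shared. Of the 4516 genes above background in control, 3833 (84.9%) were above the level of each group in all 4 groups. Another 165 were above it in control and in no exposed group. Only 13 of the 165 were called higher in control by the limma contrast given below, so 165 does not count genes that differ. In at least 1 of the 4 groups 4581 genes were above the level, so some passed in an exposed group and not in control. Of these, 0 passed in all 3 exposed groups, which is a different condition from that of the 165. Probe sets were picked as the brightest in control, and the part of that choice in the 0 was not tested. The exposed groups had higher levels than the 5.42 of control. T10 had a level of 5.77 and 3840 genes above it, T50 5.52 and 4370, and T100 5.65 and 4216; the part of the level in these counts was not tested. The mesothelial list had 8 of 15 members above background in each of the 4 groups, and the hepatocyte secreted proteins 0 of 24 in each.

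The level of each gene in control was set against the mean of the 3 exposed group means with limma, fitted to all 12 arrays and 22093 genes. At an adjusted p below 0.05, 189 genes (0.855%) were called, 130 higher in control (0.588%) and 59 lower (0.267%), and 2387 had an unadjusted p below 0.05. Of the 189, 111 were above background in control and 115 in at least 1 of the 4 groups. The others were below the level in every group, where signals cannot be told from background. Among all 189, 16 were at least 2-fold higher and 7 at least 2-fold lower in control. The number of calls fell to 62, 54 and 122 without control replicate 1, 2 and 3, and to 124 without T100 replicate 1. After quantile normalization it was 403, 188 higher and 215 lower, so the surplus of genes higher in control is not kept under that scaling. Of the 15 mesothelial genes, limma called 0, and 3 had an unadjusted p below 0.05; the median difference was -0.06, with -0.0031 over all genes. Of the 24 hepatocyte secreted proteins, it called 0, and 5 had an unadjusted p below 0.05.

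**Figure D4:**
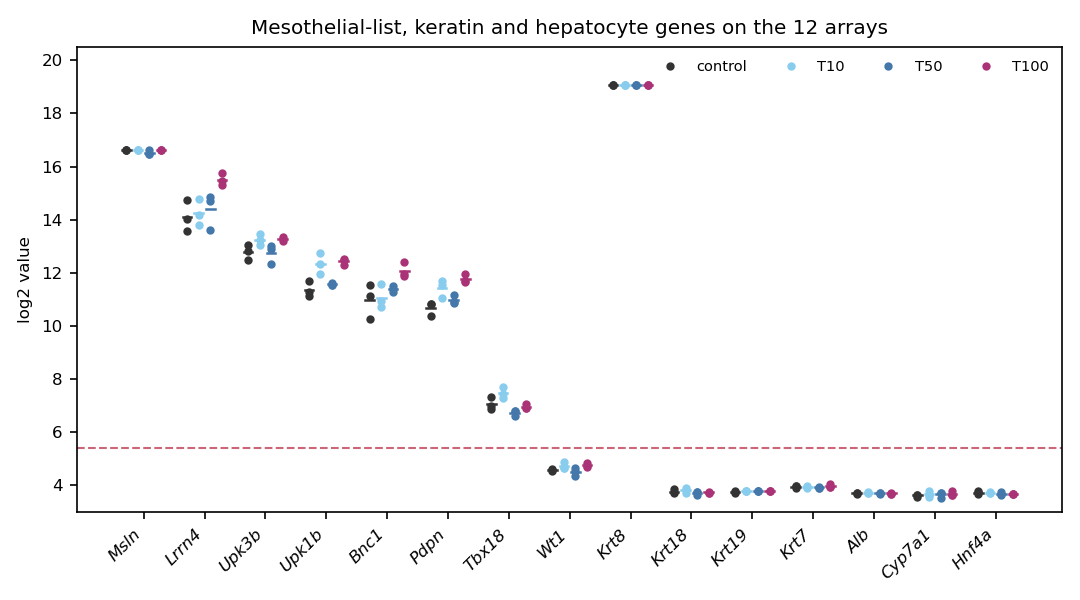
Log2 values of 15 genes on the 12 arrays, with 1 point per array, short bars for group means of 3 arrays and colours for control, T10, T50 and T100. The dashed line is the negative-control level of the control arrays (5.42). Msln, Lrrn4, Upk3b, Upk1b, Bnc1, Pdpn, Tbx18 and Krt8 lie above the line on each array, and Wt1, Krt18, Krt19, Krt7, Alb, Cyp7a1 and Hnf4a lie below it; the genes were chosen after their values were seen.

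The genes that were most distinctive of the unexposed cells were Tex101, Fgf19, Ccl7 and the interleukin-1 receptor antagonist Il1rn. Tex101 read between 9.82 and 10.23 on the control arrays and between 5.40 and 8.12 on the exposed ones, a difference of 3.38 ± 0.13 (SE; limma adjusted p = 4.08e-06). Ccl7 read at least 11.82 in control and at most 10.84 in the exposed groups (2.37 ± 0.14, adjusted p = 9.34e-05). Fgf19 and Il1rn differed by 2.69 ± 0.25 and 1.74 ± 0.18, and the sizes are uncertain because Fgf19 was below background in T10 and T100 and Il1rn in T10. The other genes higher in control were the collagen Col8a1 (1.35 ± 0.13), the drug pump Abcb1b (1.27 ± 0.19), the laminin receptor Bcam (1.27 ± 0.13) and Cpxm2 (1.19 ± 0.10, below background in each exposed group). None of the 3 control arrays overlapped the 9 exposed arrays for these 8 genes, as the naming rule requires. The call for Abcb1b was lost without control replicate 1 (adjusted p = 0.102) and without control replicate 2 (adjusted p = 0.0927).

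Lower in control than in the exposed cells were elastin (Eln), the rubber-like fibre of the matrix, and 7 others. Eln read 8.92 to 9.18 in control and 9.85 to 14.04 on the exposed arrays (difference -2.52 ± 0.41, SE; limma adjusted p = 0.0241), but its adjusted p was 0.122, 0.132 and 0.0824 without control replicate 1, 2 or 3. The limma adjusted p of Eln was also above 0.05 without T50 replicate 2 (0.0517) and without T50 replicate 3 (0.0506). The metalloprotease Adam12 (-1.17 ± 0.15), Frmd4b (-1.09 ± 0.17), Cux1-ps1 (-1.08 ± 0.16), Cbx3l1 (-0.88 ± 0.12), Gclc, the rate-limiting enzyme of glutathione synthesis (-0.87 ± 0.08, adjusted p = 0.00159), and Inpp5f (-0.83 ± 0.14) followed. Ptprz1, a receptor-type phosphatase, was below background in control (3.96 ± 0.09), T50 and T100, and at 6.43 ± 0.08 in T10 only, so its low control level is a bound. Of these, Adam12, Frmd4b, Cux1-ps1, Cbx3l1 and Inpp5f also lost the call without control replicate 2. The limma adjusted p lay between 0.0556 for Adam12 and 0.165 for Inpp5f. Without control replicate 1, Frmd4b (limma adjusted p = 0.116), Cux1-ps1 (0.085), Cbx3l1 (0.0733) and Inpp5f (0.15) lost it too. Cux1-ps1 also lost it without control replicate 3 (0.0629). Inpp5f also lost it without T10 replicate 2 or 3, T50 replicate 1 or T100 replicate 2.

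**Figure D5:**
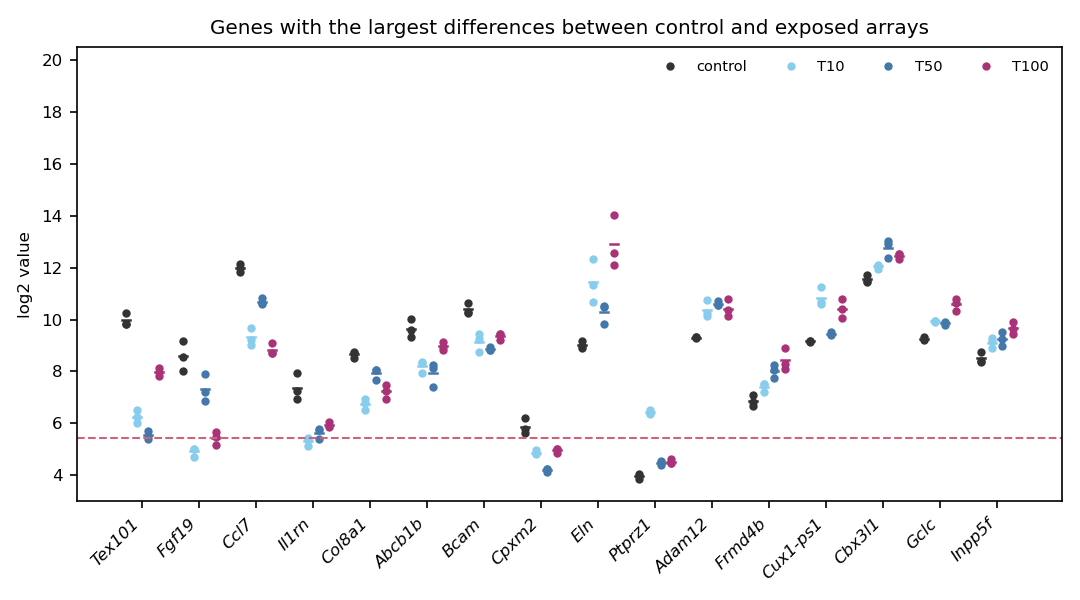
Log2 values on the 12 arrays of the 8 genes higher and the 8 genes lower in control that the naming rule selected, with 1 point per array, short bars for group means and the negative-control level of the control arrays as a dashed line (5.42). In each gene the control arrays lie on 1 side of all exposed arrays, and Tex101 shows the largest difference (3.38).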

How the data were processed

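RNA of 12 samples was hybridised to Affymetrix rat arrays after amplification of 100 ng with the WT Plus kit, per the labels' protocols. The authors deposited 1 log2 value per probe set and array; the log base was taken from the range (2.87 to 19.93), and the background correction, summarization and normalization are not given in the sources used here. Of 70580 probe sets, 23446 had 1 gene symbol in GEO's platform annotation, which is old, 505 had several and 44891 none; 22077 of the 23446 matched the RefSeq gene table (GRCr8) by Entrez number. Of 1182 genes with several probe sets, 159 had one above and another below the level. The level is defined with the results. R 4.3.3 and limma 3.58.1 were used, with 4 group means, no block and Benjamini-Hochberg adjustment over 22093 genes. With 3 control arrays, their number limits the precision.

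Genes named are the 30 brightest (extended to all ties at the ceiling), per list the 4 brightest above the level and the first 4 written members not above it, 3 genes on either side of the level, the 8 most variable, and 8 in each direction of the control contrast with no overlap; names outside it are marked or complete a count. The members and the 50 lists were chosen with earlier results of these data known, and the symbol patterns, motifs, promoters and microRNAs shown were chosen after values were seen. The list of 13 mitochondrial genome genes matched 0 symbols. Alternatives were another percentile, each array alone, another probe set, probe sets with several symbols, quantile normalization, filters, trended and robust moderation, the replicate block and leaving out arrays.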

Additional observations from a re-analysis of the deposited data

Results flagged for a closer look

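Probe sets outside the 22093 genes also carried signal in the control cells, above the same negative-control level of 5.42. Of 44891 probe sets without a gene symbol, 4607 (10.26%) were above it, and 270 sat at the ceiling on the 3 control arrays. Of 505 probe sets with several symbols, 88 (17.43%) were above it, and none of these enters the counts by gene. No array of the groups of 3 was tested for lying apart from the others.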

How the results depend on the processing

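The count of genes above background was 4516. With the 99th percentile of the negative controls (a level of 9.38) it was 1168, and under the other alternatives it ran from 4315 (each array above its own level) to 5832 (90th percentile). Leaving out a control array gave 4454 to 4611. The hepatocyte secreted proteins stayed at 0 of 24 under each of the 10 alternatives and the mesothelial list at 7 or 8 of 15. The highest hepatocyte secreted protein gene lay at 3.92 and the lowest alternative level at 4.83. A change of level alone could therefore not have moved that 0. Both lists were singled out after their values were seen. At the 99th percentile the counts of 33 of the 50 lists moved by more than 1.5 times, against 2 at the 90th percentile and 1 each with the array-wise rule and the lowest probe set. Of the control contrast, quantile normalization gave 403 calls, 215 of them lower in control. Leaving out 1 array gave 54 to 219 calls, 40 to 153 higher and 14 to 70 lower in control. Only genes above background gave 188, trended and robust moderation 176, and leaving out genes tied on the control arrays, added after seeing the data, 232. Deviations from the group mean correlated at -0.09 to 0.11 between same-numbered arrays of control and other groups. Between differently numbered arrays they correlated at -0.17 to 0.08. With 3 arrays per group and most genes at background, this cannot decide whether equal numbers mark a shared culture or day. The labels do not say. With the replicate block 163 genes were called, 111 higher and 52 lower. Of 28 named genes called in the main fit, 13 were called under each alternative and 15 lost the call under at least 1. The causes were not tested. Signals under 5.42 cannot be told from background, and values at 19.93 have no order.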
